A study of Mus musculus with 12 samples.

Results

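MHC class II molecules show fragments of engulfed proteins to CD4+ T cells, and 8 of the 46078 genes in a table of mouse liver RNA-seq counts make up their core machinery. They were chosen by name, by matching Ensembl identifiers to gene symbols in the GENCODE annotation of mm10, and all 8 passed the filter on low counts that left 13054 genes. H2-Aa and H2-Ab1 encode the alpha and beta chains of the class II molecule I-A, and H2-Eb1 encodes the beta chain of I-E. Cd74 encodes the invariant chain, which guides new class II molecules to the endosome and blocks their groove. H2-DMa, H2-DMb1 and H2-DMb2 encode the DM chaperone, which swaps the last piece of the invariant chain for an antigen peptide. Ciita encodes the coactivator that switches these genes on.

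Class II molecules are made at all times by dendritic cells, B cells and macrophages, and by few other cells unless interferon gamma induces them. In the liver the resident macrophages are the Kupffer cells, which line the sinusoids and take up particles from portal blood. The promoters of class II genes carry an X box, bound by RFX and CREB proteins, and a Y box, bound by NF-Y, and CIITA is recruited to the complex that forms there.

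The livers came from male C57BL/6 mice with diet-induced obesity, aged 21 weeks and fed a diet with 60% of its energy as fat. The VSG group had vertical sleeve gastrectomy. The Sham-WM group had sham surgery and was then given limited food so that its weight matched that of the VSG group, and the Sham-Ad lib group had sham surgery and ate freely. Each group had 4 mice, culled on day 16 after surgery and 5 hours after food was removed, with 1 library per mouse. Comparing VSG with Sham-WM addresses what differs at matched weight, and comparing each with Sham-Ad lib addresses the whole effect of either treatment.

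Library totals ranged from 15122520 to 19384076 counts. Libraries were placed in groups by the animal number that a sample's title shares with its column name. Another field of the labels pairs the titles with other columns. Under that pairing edgeR called no gene of the whole table in any comparison, and so none of the 8. The directions given below did not all hold under it. Library 4F of the Sham-Ad lib group stood apart from its group in most of the genes described here, so the comparisons of the 8 genes with that group are given with and without it. Levels are CPM, the counts scaled to a common library size, normalised by the TMM method, and tests are edgeR's quasi-likelihood test over all 13054 genes, called at a Benjamini-Hochberg adjusted p under 0.05. The whole liver was measured, so fewer cells of a type and less RNA per cell cannot be told apart.

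Of the 8 genes, 6 lie in the class II region of chromosome 17. On mm10 they run from H2-DMa (17:34119541-34139101) through H2-DMb2 (17:34143307-34151555), H2-DMb1 (17:34153072-34160230) and H2-Ab1 (17:34257689-34269419) to H2-Aa (17:34282744-34287823) and H2-Eb1 (17:34305867-34316674). H2-Aa is on the minus strand and the others are on the plus strand. Ciita is on chromosome 16 (16:10480059-10528418, plus strand), and Cd74 is on another chromosome. The stretch of 150 bases before the RefSeq start (GRCm38.p6) is shown for the 4 genes in which X box and Y box letters were found at a common spacing, because these boxes are where CIITA acts. Capitals mark, in order, the X box letters AACNGATG or TGACGTCA and the Y box letters ATTGG, which is CCAAT on the opposite strand.
H2-Aa, chr17:34287824-34287973, minus strand: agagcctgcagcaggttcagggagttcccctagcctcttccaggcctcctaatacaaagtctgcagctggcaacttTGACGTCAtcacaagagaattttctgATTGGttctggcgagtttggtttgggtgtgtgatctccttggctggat
H2-Eb1, chr17:34305717-34305866, plus strand: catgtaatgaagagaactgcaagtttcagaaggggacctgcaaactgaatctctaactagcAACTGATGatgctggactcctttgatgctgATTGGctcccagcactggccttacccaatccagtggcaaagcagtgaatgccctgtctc
H2-DMb1, chr17:34153041-34153190, plus strand: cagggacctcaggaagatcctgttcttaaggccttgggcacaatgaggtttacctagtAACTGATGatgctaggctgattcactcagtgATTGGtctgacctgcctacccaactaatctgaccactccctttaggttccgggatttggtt
H2-DMb2, chr17:34145099-34145248, plus strand: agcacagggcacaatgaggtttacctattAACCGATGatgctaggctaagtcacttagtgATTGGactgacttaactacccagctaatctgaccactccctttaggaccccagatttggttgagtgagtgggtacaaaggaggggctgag

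The Y box letters began 48 bases before the start in H2-Aa, 59 in H2-Eb1, 61 in H2-DMb1 and 90 in H2-DMb2. The X box letters began 74, 89, 92 and 121 bases before the start in the same order. H2-Aa matched TGACGTCA and the other genes AACNGATG, so its distance is not of the same letters as theirs. Over all 32851 RefSeq promoter windows of 300 bases, searched on both strands, AACNGATG was in 2.32%, TGACGTCA in 1.79% and ATTGG in 37.4%. X box letters lying 20 to 40 bases before ATTGG on the same strand were in 33 windows, which is 0.1% of them. H2-DMa matched ATTGG alone, 198 bases before one of its starts, and H2-Ab1 and Ciita have no window in the table used. The promoter of Cd74 was not searched here, so nothing is said of its boxes. The motifs do not overlap each other, and a match describes letters only.

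**Figure D1:**
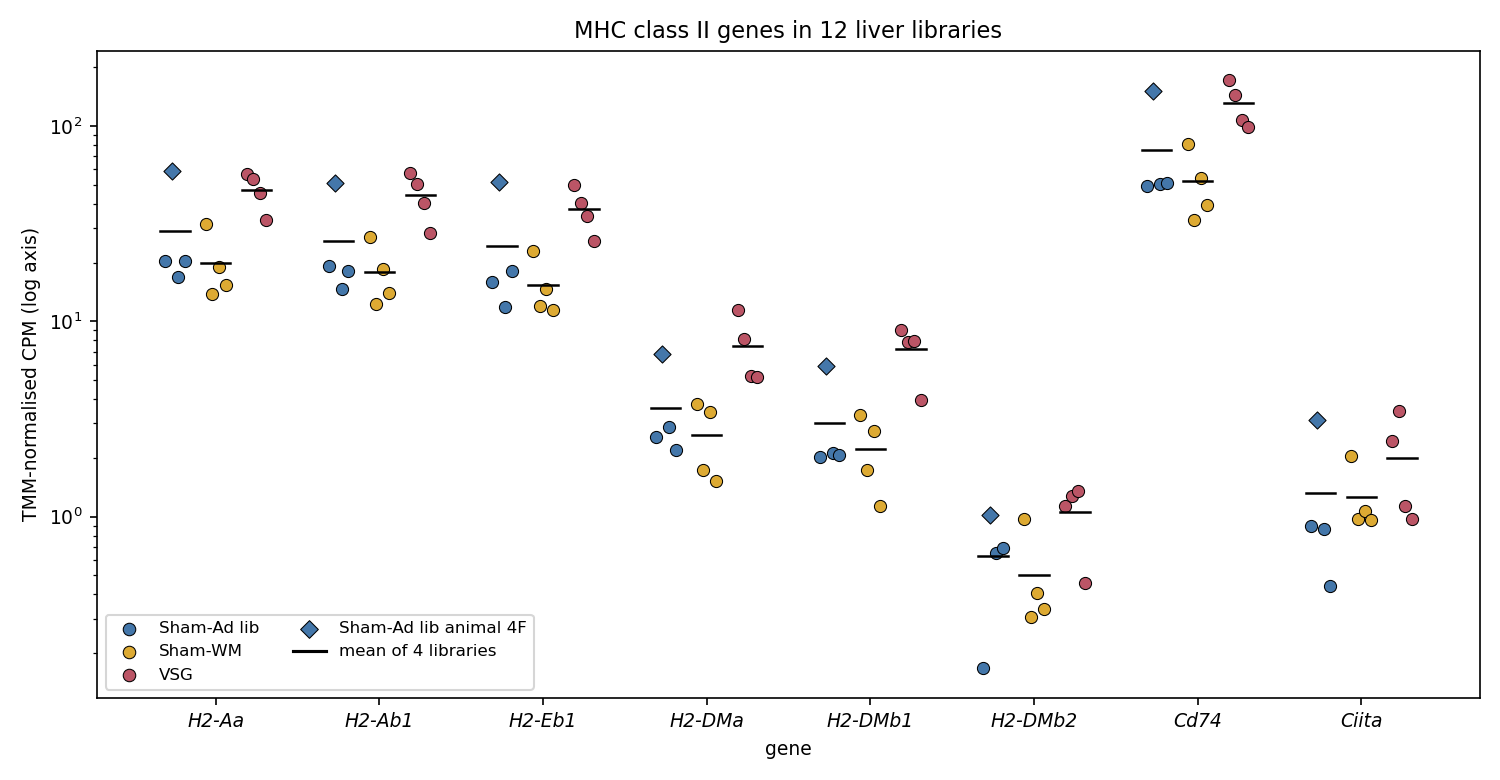
TMM-normalised CPM (log axis) of the 8 MHC class II genes, with 1 point per library coloured by group, a bar at the mean of 4 libraries and a diamond for Sham-Ad lib library 4F. The VSG points lie above all Sham-WM points for 6 genes and overlap them for H2-DMb2 and Ciita, and 4F lies above the other Sham-Ad lib points for all 8.

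The class II chains were higher in VSG livers than in Sham-WM livers, and the 4 libraries of each group did not overlap. H2-Aa was at 32.9, 45.3, 53.7 and 57.2 CPM in the VSG libraries and at 13.8, 15.3, 19.1 and 31.5 CPM in the Sham-WM libraries. The lowest VSG library thus lay only a little above the highest Sham-WM library. The fold change was 2.37 (log2 1.24, SE 0.38, n = 4 per group, edgeR adjusted p = 0.029).

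H2-Ab1, the partner chain of H2-Aa, followed it. Its VSG libraries were at 28.5, 40.2, 50.5 and 57.7 CPM and its Sham-WM libraries at 12.3, 14, 18.6 and 27.1 CPM, a log2 difference of 1.30 (SE 0.38, edgeR adjusted p = 0.0243). H2-Eb1 was at 25.7, 34.6, 40.6 and 50.2 CPM in VSG and at 11.4, 12, 14.7 and 23 CPM in Sham-WM, a log2 difference of 1.31 (SE 0.4, edgeR adjusted p = 0.03). In both genes a single Sham-WM library, 2F, came close to the VSG range. C57BL/6 mice carry the alpha chain of I-E as a pseudogene, H2-Ea-ps, and it had 0 counts in all 12 libraries, which allows a level of up to 0.153 to 0.226 CPM at 3 counts per library.

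Cd74 had the most counts of the 8 genes. The VSG libraries ran from 99.1 to 172 CPM (mean 131 ± 33.4, SD, n = 4), and the Sham-WM libraries lay at 33.2, 39.5, 54.5 and 81.1 CPM. The groups did not overlap, and the fold change was 2.51 (log2 1.33, SE 0.38, edgeR adjusted p = 0.0223).

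Both chains of the DM chaperone that were counted deeply enough were higher in VSG. H2-DMa, its alpha chain, was at 5.18, 5.27, 8.17 and 11.4 CPM in VSG and at 1.52, 1.74, 3.42 and 3.77 CPM in Sham-WM, a log2 difference of 1.52 (SE 0.41, edgeR adjusted p = 0.0171). H2-DMb1, a beta chain, was at 3.98, 7.86, 7.98 and 9.02 CPM in VSG and at 1.13, 1.74, 2.75 and 3.31 CPM in Sham-WM, a log2 difference of 1.68 (SE 0.41, edgeR adjusted p = 0.011). Neither gene overlapped between the groups. H2-DMb2, the other beta chain, had between 3 and 25 counts per library and did overlap. It ran from 0.455 to 1.36 CPM in VSG and from 0.307 to 0.968 CPM in Sham-WM (log2 difference 1.04, SE 0.52, edgeR adjusted p = 0.149).

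Ciita, the coactivator of the whole set, did not pass the test. Its VSG libraries split into a higher pair at 2.45 and 3.47 CPM and a lower pair at 0.967 and 1.13 CPM, and the lower pair lay within the Sham-WM range of 0.957 to 2.04 CPM. The log2 difference was 0.68 with an SE of 0.55 (edgeR adjusted p = 0.379), on 7 to 68 counts per library. The 95% interval of that difference ran from -0.41 to 1.77, so a change of either sign was not told apart at this depth.

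In all, 6 of the 8 genes were called higher in VSG than in Sham-WM and none lower, beside 26.9% of all tested genes called and 15.0% called higher. The same 6 did not overlap between the groups, beside 14.3% of all tested genes that lay higher in VSG without overlap. The median log2 difference was 1.30 over the 8 genes and 0.03 over all tested genes. DESeq2 called the same 6, with adjusted p between 0.000504 and 0.00512, beside 31.3% of all tested genes. The direction was the same in each fit without 1 of the 12 libraries, but the count was not: it fell to 1 without Sham-WM 16F or VSG 1F, to 2 without Sham-WM 9F or 15F and to 4 without VSG 8F. H2-DMb1 was called in every one of those fits, with an adjusted p of at most 0.0355. With 2 factors of unwanted variation estimated from replicate libraries (RUVs), 0 of the 8 were called, and with 2 estimated from residuals (RUVr) 6 were. The share of all tested genes called in these fits is not given here. The changes in count are therefore not read as particular to these 8 genes.

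**Figure D2:**
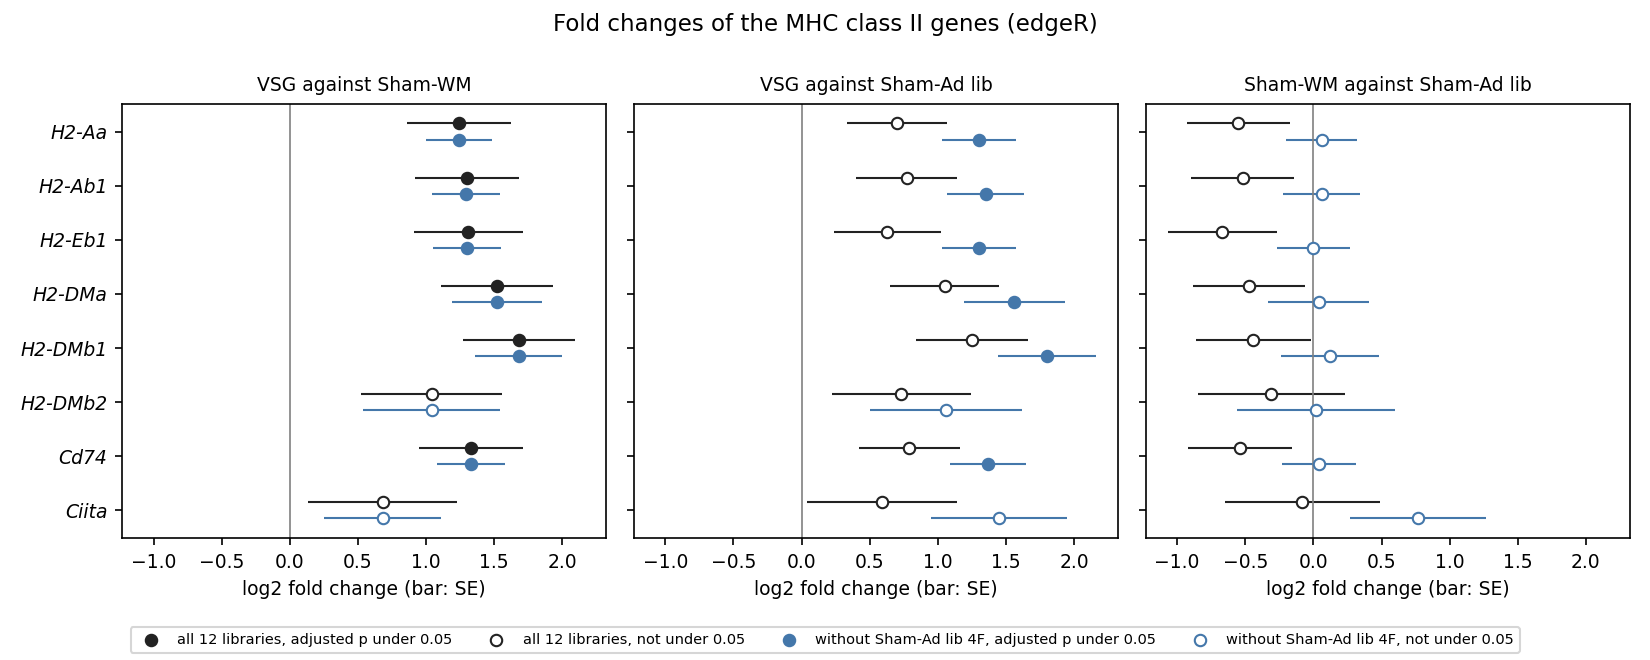
Log2 fold changes (edgeR, bars are SE) of the 8 genes in the 3 comparisons, with all 12 libraries in black and without Sham-Ad lib library 4F in blue, and filled points for an adjusted p under 0.05. Filled points stand for 6 genes in VSG against Sham-WM in both fits, and in VSG against Sham-Ad lib for the fit without 4F.

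Against Sham-Ad lib, the VSG levels were not told apart from the control. H2-Aa was at 16.8, 20.3, 20.5 and 59.1 CPM in the Sham-Ad lib libraries, the last of these being 4F, which was above every VSG library. Cd74 was at 49.5, 50.6 and 51.4 CPM in 3 Sham-Ad lib libraries and at 152 CPM in 4F. The other 3 Sham-Ad lib libraries lay below the lowest VSG library in both genes.

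With all libraries, 0 of the 8 genes passed edgeR's test, beside 0.751% of all tested genes. Log2 differences ran from 0.59 for Ciita to 1.25 for H2-DMb1, and adjusted p from 0.0993 to 0.529. At an unadjusted p under 0.05, edgeR marked 2 of the 8, H2-DMa and H2-DMb1, beside 24.1% of all tested genes. DESeq2 called H2-DMb1 alone (adjusted p = 0.0339), beside 9.21% of all tested genes. None of the 8 was free of overlap between the groups, beside 9.21% of all tested genes.

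Without 4F, 6 of the 8 genes were called higher in VSG than in the remaining 3 Sham-Ad lib libraries, by edgeR and by DESeq2 alike. Of the 13231 genes then tested, edgeR called 5.36% higher, and DESeq2 called 12.1% in either direction. The called genes were the 3 class II chains, Cd74, H2-DMa and H2-DMb1, with log2 differences of 1.30 to 1.80. H2-DMb2 (1.06, SE 0.56, edgeR adjusted p = 0.259) and Ciita (1.45, SE 0.5, edgeR adjusted p = 0.101) were not called. The choice to leave this library out was made after its values had been seen.

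Food restriction alone did not separate these genes from the control. Comparing Sham-WM with Sham-Ad lib, 0 of the 8 were called by edgeR or DESeq2, beside 6.99% of all tested genes in edgeR and 11.1% in DESeq2. At an unadjusted p under 0.05 edgeR marked 0 of the 8, beside 21.6% of all tested genes, and none of the 8 was free of overlap, beside 17.6%. Both comparisons with Sham-Ad lib share its 4 libraries. Log2 differences lay between -0.67 for H2-Eb1 and -0.08 for Ciita. Without 4F they lay between 0.00 for H2-Eb1 and 0.77 for Ciita (SE 0.5, edgeR adjusted p = 0.455), again with 0 called, beside 5.02% of all genes in that fit. The direction with all libraries therefore rested on 4F.

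Per kilobase of exon the 8 genes spanned a wide range. In VSG livers Cd74 was at 77.9 ± 19.9 CPM per kilobase (SD, n = 4), H2-Eb1 at 19.4 ± 5.31, H2-Ab1 at 17.2 ± 4.95 and H2-Aa at 12.4 ± 2.84. The DM chains were lower, at 4.29 ± 1.32 for H2-DMb1, 2.18 ± 0.856 for H2-DMa and 0.604 ± 0.235 for H2-DMb2, and Ciita was lowest at 0.21 ± 0.124. H2-Ab1 and H2-Eb1 were each above H2-Aa in 12 of 12 libraries, both by the union of exons and by the longest transcript. For H2-Aa these lengths, 3798 and 3223 bases, are well above its longest protein-coding transcript, 1128 bases. No level was computed with that length. The longest protein-coding transcripts of H2-Ab1 and H2-Eb1 are longer than it, at 1212 and 1669 bases. These genes had at most 1.01 and 0.881 counts per count of H2-Aa. With those lengths H2-Aa would lie above both, so its place below the other chains rests on the lengths used. The order of H2-Ab1 and H2-Eb1 depended on the length used. H2-Eb1 was the higher in 12 of 12 libraries with the union of exons and in 0 of 12 with the longest transcript, where H2-Ab1 came to 36.5 ± 10.5, H2-Eb1 to 22.6 ± 6.18 and H2-Aa to 14.7 ± 3.35 in VSG.

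Within a library the chains kept close proportions. H2-Ab1 had 0.859 to 1.01 counts per count of H2-Aa over the 12 libraries, H2-Eb1 had 0.71 to 0.881 and Cd74 had 2.39 to 3.02. These ranges covered VSG, Sham-WM and Sham-Ad lib libraries alike, and 4F was at 0.87 for H2-Ab1. H2-DMa varied more, from 0.0996 to 0.199, and so did H2-DMb1, from 0.0738 to 0.176. Ciita, counted far less deeply, ran from 0.0214 to 0.0704 counts per count of H2-Aa.

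The mice also kept much the same order from gene to gene. The Sham-Ad lib library 4F and the Sham-WM library 2F were the highest of their groups in 8 of 8 genes, and the VSG library 18F was the lowest of its group in 8 of 8. The VSG library 1F was the highest in 6 of 8, while 8F led for Ciita and 11F for H2-DMb2. As a description over 12 libraries that share group and mouse, Pearson's r between log2 CPM of the 28 pairs of genes had a median of 0.931. It was highest for H2-Aa and H2-Ab1 (r = 0.996) and lowest for Ciita and H2-DMb2 (r = 0.596). After group means were taken off, the median was 0.867.

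**Figure D3:**
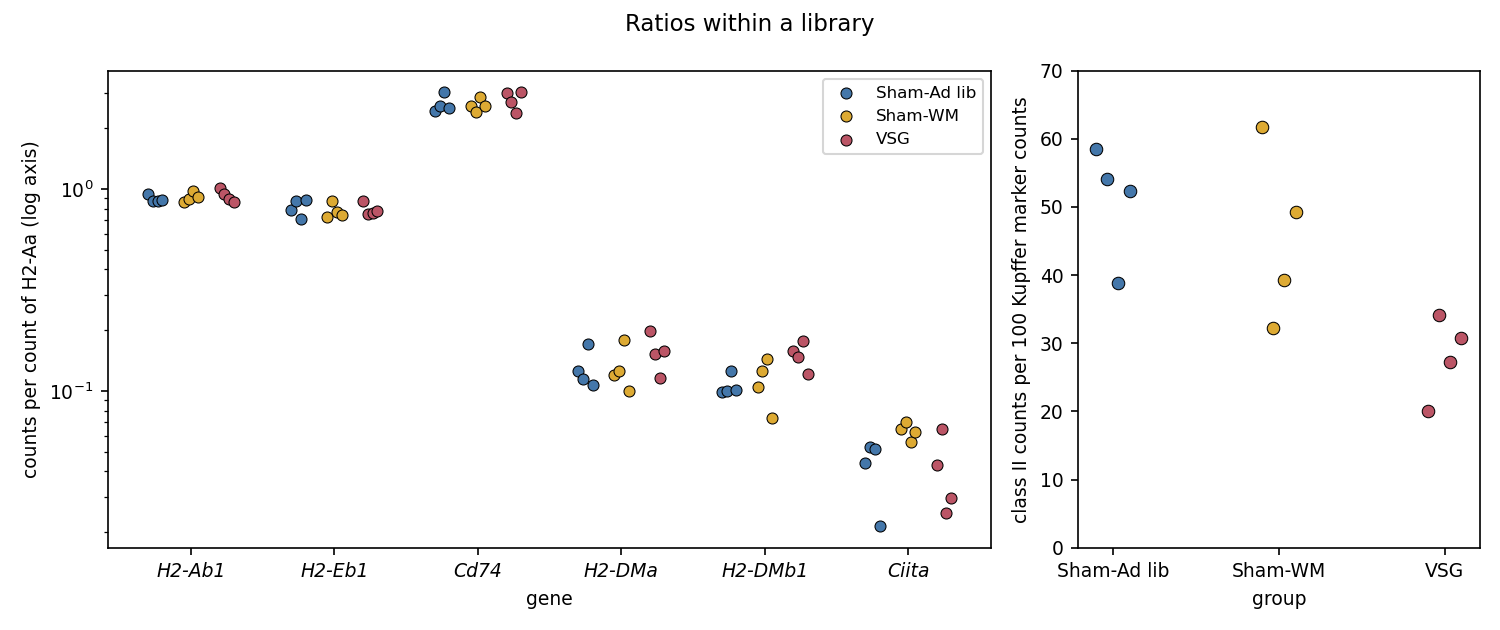
Left, counts of 6 genes per count of H2-Aa in the same library (log axis), and right, counts of H2-Aa, H2-Ab1, H2-Eb1 and Cd74 together per 100 counts of 10 Kupffer cell markers, with 1 point per library coloured by group. H2-Ab1 stayed between 0.859 and 1.01 in all groups, while the right-hand ratio was 20 to 34.2 in VSG and 32.2 to 61.7 in Sham-WM.

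Markers of Kupffer cells moved with these genes, while fewer of the dendritic cell and B cell markers were called. The 10 Kupffer cell markers, which include the lectin Clec4f and the complement receptor Vsig4, were all called higher in VSG than in Sham-WM (median log2 difference 2.01). Their summed level was 606 to 1680 CPM in VSG, 163 to 272 CPM in Sham-WM and 180 to 581 CPM in Sham-Ad lib, with 4F as the highest Sham-Ad lib library. Clec4f itself was at 124 to 242 CPM in VSG and 38 to 64.7 CPM in Sham-WM, a log2 difference of 1.63 (SE 0.26, edgeR adjusted p = 0.00155). Marco, a scavenger receptor, showed the largest difference of the list, 3.63 (SE 0.79, edgeR adjusted p = 0.00609), followed by Adgre1 (2.25), Cd5l (2.17) and C1qb (2.12). Against Sham-Ad lib, 3 of the 10 were called higher, and 10 of 10 without 4F.

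Per Kupffer cell marker count, the class II genes were not higher in VSG. Counts of H2-Aa, H2-Ab1, H2-Eb1 and Cd74 together came to 20, 27.3, 30.7 and 34.2 per 100 Kupffer marker counts in the VSG libraries. The Sham-WM libraries were at 32.2, 39.3, 49.2 and 61.7 and the Sham-Ad lib libraries at 38.8, 52.3, 54.1 and 58.5. The VSG libraries thus lay below every Sham-Ad lib library and overlapped Sham-WM at their upper end. On this ratio 4F, at 54.1, fell inside the range of its group. With 1 marker in place of 10, the order was less clear. Cd74 had 0.709 to 0.972 counts per count of Clec4f in VSG, 0.604 to 1.46 in Sham-WM and 0.842 to 1.62 in Sham-Ad lib, so that the groups overlapped, and 4F was the highest of the 12 libraries. These ratios were chosen after the levels had been seen, and no test was made of them.

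**Figure D4:**
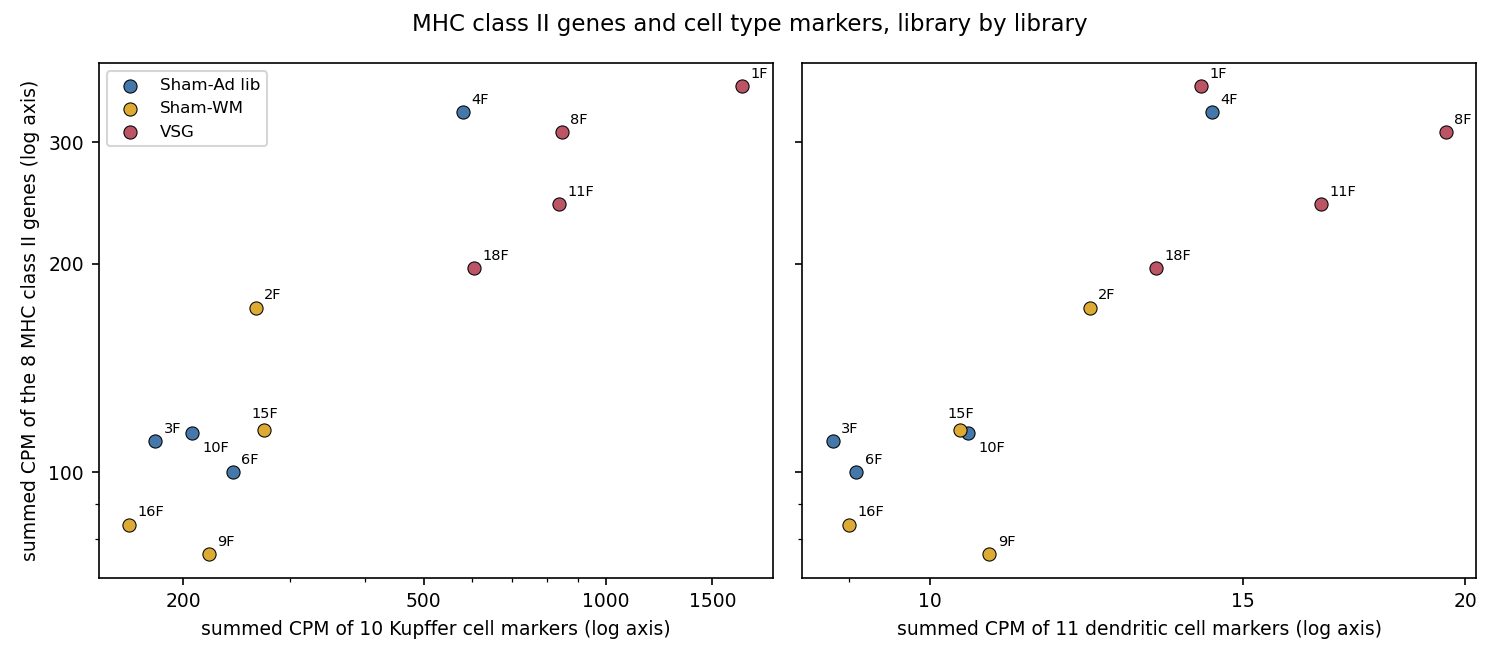
Summed CPM of the 8 MHC class II genes against that of 10 Kupffer cell markers (left) and 11 dendritic cell markers (right), both axes log, with 1 point per library named by its mouse and coloured by group. The 4 VSG libraries and Sham-Ad lib 4F lie together at 197 to 361 CPM of class II genes, and the other libraries at 76.1 to 173 CPM.

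Dendritic cell markers were rarer, and fewer of them were called. Of 11 markers 8 were tested and 3 were called higher in VSG than in Sham-WM: Clec10a (2.28, SE 0.72, edgeR adjusted p = 0.033), Batf3 (2.14, SE 0.47, edgeR adjusted p = 0.00635) and Xcr1 (1.33, SE 0.42, edgeR adjusted p = 0.0342). Of the 8, 7 had a log2 difference above 0. Zbtb46 went the other way (-0.28, not called), at a mean of 4.07 CPM in VSG and 4.91 CPM in Sham-WM. The summed level was 13.4 to 19.5 CPM in VSG, 9.01 to 12.3 CPM in Sham-WM and 8.82 to 14.4 CPM in Sham-Ad lib. The class II counts came to 1370 to 2380 per 100 dendritic cell marker counts in VSG and 664 to 1330 in Sham-WM, the reverse of the order seen per Kupffer cell marker count. The Sham-Ad lib libraries were at 1030 to 1190 apart from 4F, which at 2180 lay within the VSG range.

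Of 11 B cell markers 9 were tested and 3 were called higher in VSG than in Sham-WM, among them Cd22 (log2 difference 1.81) and Cd79b (0.95). Their summed level was 10.6 to 17 CPM in VSG, 5.76 to 8.45 CPM in Sham-WM and 6.86 to 12.4 CPM in Sham-Ad lib. Per 100 B cell marker counts the class II counts overlapped, at 1570 to 3170 in VSG, 845 to 2030 in Sham-WM and 1170 to 2530 in Sham-Ad lib, where 4F was the highest. Recruited macrophage markers summed to 157 to 619 CPM in VSG and 32.7 to 71.1 CPM in Sham-WM, with 6 of 10 called higher, among them Chil3 (7.29), Ly6c2 (4.84), Lyz2 (3.02) and Itgam (3.01). Neutrophil markers summed to 22 to 627 CPM in VSG and 2.66 to 3.72 CPM in Sham-WM, with 5 of 5 tested genes called higher, led by S100a9 (7.71), S100a8 (7.17) and Retnlg (5.63). Of the T cell markers, 1 of 3 tested, Cd3g (1.65, edgeR adjusted p = 0.0178), was called. Cd4 went the other way (-0.59, not called), at a mean of 1.77 CPM in VSG and 2.69 CPM in Sham-WM. What part these cells have in the level of the class II genes was not tested.

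Markers of the other cells of the liver did not rise as lists. Of 7 sinusoidal endothelial markers and 5 cholangiocyte markers 0 were called in this comparison by edgeR, with Lyve1 at 0.77 and Gpr182 at -0.58, both at an unadjusted p under 0.05, while DESeq2 called Krt19 lower and Spp1 higher among the cholangiocyte markers. Of 6 stellate cell markers 3 were lower in VSG, namely Lrat (-1.33), Reln (-1.06) and Ecm1 (-0.73). Of 7 hepatocyte markers, the transferrin gene Trf was higher (1.18) and Cps1 (-0.83) and Alb (-0.73) were lower. Cidec, from the adipocyte list, was called lower in Sham-WM than in Sham-Ad lib (-2.39, edgeR adjusted p = 0.0201). Without 4F edgeR did not make this call (-1.72, edgeR adjusted p = 0.0542), but DESeq2 did (DESeq2 adjusted p = 0.00578). In VSG against Sham-Ad lib, Cidec was at -2.44 and not called (edgeR adjusted p = 0.0528). Without 4F it was called there (-1.77, edgeR adjusted p = 0.0426). Adipoq, of the same list, had 0 or 1 counts in every library.

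In whole liver, the genes of the factors that bind class II promoters did not rise as the class II genes did. Their level in the cells that carry class II molecules was not measured. Of the 7 genes of RFX, NF-Y and CREB, 0 were called higher in VSG than in Sham-WM and 3 were called lower. Rfxank, a subunit of RFX, was at 6.84, 6.88, 7.23 and 8.59 CPM in VSG and at 11, 13.2, 14.4 and 14.4 CPM in Sham-WM, a log2 difference of -0.84 (SE 0.16, edgeR adjusted p = 0.00309). It was also higher in Sham-WM than in Sham-Ad lib (1.03, SE 0.16, edgeR adjusted p = 0.00276, and 1.12 without 4F), and its VSG and Sham-Ad lib libraries overlapped. Creb1 (-0.47, SE 0.14, edgeR adjusted p = 0.0235) and Nfyc (-0.27, SE 0.09, edgeR adjusted p = 0.0386) were the others. Rfx5, the subunit that binds DNA, differed by -0.02 (SE 0.2).

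Interferon gamma, the classical inducer of Ciita, was barely detected. Ifng had between 0 and 2 counts in each of the 12 libraries and was not tested. Both chains of its receptor rose in VSG compared with Sham-WM: Ifngr2 by 1.25 (SE 0.14, edgeR adjusted p = 0.000197) and Ifngr1 by 0.91 (SE 0.21, edgeR adjusted p = 0.00833) on the log2 scale. Ifngr2 was also lower in Sham-WM than in Sham-Ad lib (-0.91, SE 0.14, edgeR adjusted p = 0.00314, and -0.85 without 4F). Irf1, a target of the pathway, rose by 0.74 (SE 0.2, edgeR adjusted p = 0.0189). In all, 3 of 9 tested genes of this pathway were called higher and 0 lower.

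The proteases and reductase that prepare antigen and trim the invariant chain rose in VSG compared with Sham-WM, 6 of 8 of them. Ctss encodes cathepsin S, which makes the last cuts in the invariant chain. It was at 66.1, 74.4, 86.9 and 147 CPM in VSG and at 17.1, 17.9, 24.6 and 31.2 CPM in Sham-WM, a log2 difference of 2.04 (SE 0.37, edgeR adjusted p = 0.00242). Ifi30, which reduces disulfide bonds in the endosome, rose by 1.81 (SE 0.33, edgeR adjusted p = 0.00257), the asparaginyl protease gene Lgmn by 1.45 (SE 0.24, edgeR adjusted p = 0.00172) and Ctsz by 0.76 (SE 0.13, edgeR adjusted p = 0.00206). Lgmn was also called higher in VSG than in Sham-Ad lib with all libraries (1.23, SE 0.24, edgeR adjusted p = 0.0442, and 1.48 without 4F), which none of the 8 class II genes was. Whether Lgmn and the class II genes differ in this was not tested.

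Among 3 genes that set how long class II molecules and their partners stay at the cell surface, 2 were called higher in VSG. Cd83, which protects them from removal, was at 1.48 to 8.21 CPM in VSG and 0.358 to 1.22 CPM in Sham-WM (2.34, SE 0.47, edgeR adjusted p = 0.00404). March1, which encodes the ubiquitin ligase that removes class II from the surface, was at 3.24 to 9.02 CPM in VSG and 1.18 to 2.19 CPM in Sham-WM (1.74, SE 0.54, edgeR adjusted p = 0.0311). March8, a related ligase, differed by -0.04 (SE 0.12).

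The costimulatory ligand gene Cd86 rose by 1.76 (SE 0.35, edgeR adjusted p = 0.00387), Icosl by 1.52 (SE 0.39, edgeR adjusted p = 0.014) and the checkpoint ligand gene Cd274 by 1.00 (SE 0.28, edgeR adjusted p = 0.0208), which made 3 of 3 tested. Cd80, Cd40 and Pdcd1lg2 were too rare to test. CD74 at the surface also serves as a receptor for the cytokine MIF. Of the 5 genes for its ligands and partners, Cd44 (2.37, SE 0.48, edgeR adjusted p = 0.00423) and Cxcr2 (3.01, SE 0.72, edgeR adjusted p = 0.00955) were called higher, while Mif differed by 0.18 (SE 0.17). Cxcr2 is also on the list of neutrophil markers.

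H2-Ob, the beta chain of the DM inhibitor DO, lay between 0.512 and 1.89 CPM in VSG and between 0.666 and 0.815 CPM in Sham-WM, and was not called (0.84, SE 0.39, edgeR adjusted p = 0.128). Its partner H2-Oa and the class II gene H2-Eb2 had at most 10 and 5 counts per library and were not tested. MHC class I molecules are carried by nearly all cells. Of 9 genes of the class I pathway 7 were called higher in VSG than in Sham-WM, with a median log2 difference of 0.49 beside 1.30 for the class II genes. The immunoproteasome genes Psmb9 (1.33, SE 0.26, edgeR adjusted p = 0.00346) and Psmb8 (0.85, SE 0.24, edgeR adjusted p = 0.0212), the peptide transporter gene Tap1 (0.92, SE 0.12, edgeR adjusted p = 0.000611) and Tapbp (0.59, SE 0.16, edgeR adjusted p = 0.0164) were among them. Tap1 and Psmb9 overlap by their ends on chromosome 17 between H2-DMb1 and H2-Ab1, so some reads there could belong to either.

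The genes whose log2 CPM over the 12 libraries was most like the mean profile of the 8 class II genes, among 10818 genes, were Plcg2 (r = 0.962), Trim30a (r = 0.96), Ptprc (r = 0.959), Rasa4 (r = 0.959) and AB124611 (r = 0.958). Ptprc encodes CD45, carried by all leukocytes. It was at 14.3, 19.9, 33.2 and 35.9 CPM in VSG, at 5.29 to 8.66 CPM in Sham-WM and at 5.47 to 8.01 CPM in Sham-Ad lib apart from 4F, which was at 20.3 CPM. All 5 were called higher in VSG than in Sham-WM, with log2 differences from 0.97 for Trim30a to 2.05 for Plcg2. These correlations describe the libraries and were used to choose the genes.

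Some of the 8 counts could include reads of a neighbour. H2-DMa overlaps Brd2 on the opposite strand over 3094 bases, and Brd2 had a mean of 1630 counts per library, so that reads on the wrong gene could matter there if strand was not used in counting. Brd2 moved the other way, with a log2 difference of -0.636 between VSG and Sham-WM (edgeR adjusted p = 0.019). Ciita overlaps Dexi on the opposite strand over 25888 bases (mean 377 counts), and Dexi differed by -0.256 (edgeR adjusted p = 0.283). Both overlaps are between whole gene spans, introns included, and the overlap of exons was not measured. H2-DMb1 and H2-DMb2 share 179 stretches of 100 bases, which is 13.7% of those in H2-DMb1 and 12.9% in H2-DMb2, so reads could be split between them. The other 6 genes share no stretch of that length with another annotated gene.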

How the data were processed

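Poly(A) RNA from liver was made into directional libraries and sequenced by the authors as paired reads of 100 bases. Per the submitters' notes and the study's methods, reads were aligned to mm10 with TopHat2 2.1.1 and counted with featureCounts. The authors deposited a table of whole-number counts per gene, neither normalised nor corrected for batch. Whether counting used strand is not given in the sources used here, and although the study removed unwanted variation due to batch, the labels name none, so no value within a batch could be given.

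From these counts, genes were filtered in R 4.3.3 by filterByExpr (minimum count 10, minimum total 15), which left 13054, and TMM factors, group means of all 12 libraries and quasi-likelihood tests were fitted with edgeR 4.0.16. Library totals were 15122520 to 19384076 counts, reads carried no molecular identifiers, and limits given for 0 counts cover counting error only. A log2 fold change divided by the root of its F value gave its SE. Symbols came from GENCODE M21, with 45229 of 46078 identifiers matched. Each library is 1 mouse, and p-values measure the spread between mice. DESeq2 1.42.0 (the tool of the study), other normalisations and filters, fits of only the groups compared, 2 factors of unwanted variation (RUVr or RUVs, written out from their definitions), leaving out 1 library at a time, and groups taken from the other field of the labels were the alternatives. The filter and the tests were checked on simulated counts.

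The 8 genes and the 20 gene lists were chosen with earlier results of these data known. No column of the table was left unused (0). All 8 genes are named. From each other list the genes past an adjusted p of 0.05 in any comparison are named, at most 4 by size of log2 fold change, and otherwise the 2 with the largest. Some genes of these lists are not reported here by name. The 5 genes most like the mean profile are named as well. Rfx5, March8, Mif, Clec4f, Vsig4, Zbtb46, Cd4, Ifng, Adipoq and the overlapping and uncounted genes fall outside this rule and were named after their values were seen.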

Additional observations from a re-analysis of the deposited data

Results flagged for a closer look

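In 24 groups of 4 libraries (8 genes in 3 groups), the gap between an extreme library and its neighbour was compared with the group's range by Dixon's ratio. Of these, 9 passed the critical value, while chance alone passes about 1 in 20, and 7 of the 9 were the Sham-Ad lib library 4F. It was at 59.1 CPM for H2-Aa (the others at 16.8 to 20.5), 51.4 for H2-Ab1 (14.7 to 19.2), 51.5 for H2-Eb1 (11.9 to 18.1) and 152 for Cd74 (49.5 to 51.4). For H2-DMa it was at 6.81 CPM (2.2 to 2.87), for H2-DMb1 at 5.9 (2.01 to 2.11) and for Ciita at 3.11 (0.439 to 0.893). The Sham-WM library 2F was set apart in H2-DMb2, at 0.968 CPM (0.307 to 0.408), and in Ciita, at 2.04 CPM (0.957 to 1.07). The genes move together, so the 9 are not independent of each other. Library 4F was also the highest of its group in summed Kupffer cell markers (581 CPM) and recruited macrophage markers (152 CPM), and its total of 18105085 counts lay inside the range of the others. The part of other cells in its class II levels was not tested.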

How the results depend on the processing

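In VSG against Sham-WM, 6 of 8 class II genes were called under DESeq2, other normalisations and filters, the fit of these groups alone and RUVr factors, but 0 under RUVs factors and 0 when groups followed the other label field (where edgeR called 0 of all genes in any comparison). Leaving out 1 library gave 1 to 6. The share of all genes called under RUVs or RUVr factors or with 1 library left out is not given for this comparison. These changes in count are therefore not read as particular to the class II genes. In VSG against Sham-Ad lib, 0 were called, but 1 under DESeq2, 6 under RUVr factors, 6 in DESeq2 without 4F (chosen after seeing the data) and 0 to 6 with 1 library left out. In Sham-WM against Sham-Ad lib, 0 were called under every alternative run.

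Directions turned as follows, on the log2 scale. Under RUVs factors, VSG against Sham-Ad lib gave -0.07 for H2-Aa, -0.04 for H2-Ab1, -0.21 for H2-Eb1, -0.42 for H2-DMb2 and -0.38 for Ciita, VSG against Sham-WM gave -0.49 for H2-DMb2 and -0.7 for Ciita, and Sham-WM against Sham-Ad lib gave 0.07 for H2-DMb2 and 0.32 for Ciita. RUVr factors turned Ciita alone, to 0.11 in Sham-WM against Sham-Ad lib. By the other label field, Sham-WM against Sham-Ad lib gave 0.52 for H2-Aa, 0.51 for H2-Ab1, 0.56 for H2-Eb1, 0.67 for H2-DMa, 0.35 for H2-DMb1, 0.25 for H2-DMb2, 0.58 for Cd74 and 1.22 for Ciita. The same field gave -0.01 for H2-Aa, -0.01 for H2-Eb1, -0.25 for H2-DMb2 and -0.41 for Ciita in VSG against Sham-WM, and 0 for H2-DMb2 in VSG against Sham-Ad lib. The cause was not tested.

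In Sham-WM against Sham-Ad lib with 1 library left out, log2 differences ran from -0.86 to 0.06 for H2-Aa, -0.79 to 0.06 for H2-Ab1, -0.94 to 0 for H2-Eb1, -0.7 to 0.04 for H2-DMa, -0.69 to 0.12 for H2-DMb1, -0.83 to 0.02 for H2-DMb2, -0.84 to 0.04 for Cd74 and -0.41 to 0.77 for Ciita. Each highest value was without 4F.

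Among all genes, the count called in VSG against Sham-Ad lib was 98, and 1202 under DESeq2, 628 with no filter, 0 with at least 10 counts in every library, 0 in the fit of these groups alone, 3016 under RUVr and 6 under RUVs factors, with 0 to 1089 when 1 library was left out. H2-DMb2 and Ciita could not be fitted with at least 10 counts in every library. No paired analysis was possible because the groups share no replicate numbers. H2-DMb2 had 3 to 25 and Ciita 7 to 68 counts per library.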
